A study of Mus musculus with 5 samples.

Results

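Expression of 10 genes of the unfolded protein response and the integrated stress response was examined in mouse embryos at the 2-cell stage, in 3 libraries of embryos cultured with 25 nM PNMC and 2 control libraries cultured with an equal volume of DMSO, the solvent, alone. The genes were selected by symbol, all 10 of them among the 32285 symbols of the deposited expression table, and they fall into 3 roles: the sensors Atf6, Ern1 and Eif2ak3, the transcription factors Atf4, Ddit3 and Xbp1, and the endoplasmic reticulum (ER) chaperones and co-chaperones Hspa5, Hsp90b1, Dnajb9 and Sdf2l1. Per the labels, oocytes of hormone-stimulated females aged 6 to 9 weeks were fertilised in vitro for about 6 h with sperm of males aged 12 to 16 weeks, and both groups of fertilised eggs then spent 24 h in KSOM medium. RNA was extracted from whole embryos and copied by Smart-seq2, an assay that amplifies polyadenylated RNA and keeps no strand information. The labels do not spell out PNMC, and no strain, number of embryos per library or separate culture is given in them. Spread between libraries may therefore be technical.

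The ER folds proteins that are secreted or placed in membranes. When unfolded proteins build up in it, the sensors respond: the IRE1 kinase encoded by Ern1 splices Xbp1 mRNA, ATF6 is cut to release a transcription factor, and the kinase PERK encoded by Eif2ak3 phosphorylates eIF2, which lowers general translation and raises that of ATF4. ATF4 in turn activates Ddit3, which encodes CHOP, while ATF6 and spliced XBP1 activate chaperone genes. Splicing of Xbp1, cleavage of ATF6 and phosphorylation of eIF2 are not visible in gene-level RNA values.

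The 5 libraries summed to between 446010 and 454548 units of normalised signal, and neither the scaling of that unit nor the read depth is given in the sources used here. Control library 2 listed 18595 genes above 0, against 17408 to 17635 in the other libraries. The 10 markers of oocyte and 2-cell embryo RNA, among them Dppa3, Gdf9 and Zscan4d, were all present and summed to between 4973 and 5242 after PNMC and to between 4891 and 5152 in controls. Markers of other cells were low. The 12 cumulus cell markers summed to between 22.8 and 33.3 after PNMC and to between 30.3 and 32.3 in controls, with 7 of them reaching 1 in any library, Ptx3 and Pgr at 0 throughout, and Amhr2 making up most of the sum. The 8 sperm markers summed to between 4.54 and 6.89 after PNMC and to between 4.22 and 4.58 in controls, nearly all of it Prm2, with Prm1, Tnp2, Smcp and Spem1 at 0. The 5 blood markers summed to between 9.97 and 11.6 after PNMC and to between 13.5 and 21.1 in controls, with Hba-a1 and Cd74 as the 2 that reached 1. The 4 oviduct markers summed to between 1.14 and 1.90 after PNMC and to between 1.54 and 2.48 in controls, with Pax8 at 0. The blood sum moved in the same direction as the chaperones described next, and its part in those values was not tested.

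All 4 ER chaperones were lower in every PNMC library than in both controls on the deposited scale, a pattern that 11.9% of the 12734 genes tested had. It held for 3 of the 4, without Dnajb9, after libraries were scaled to a common median. The share over all genes tested was not worked out on that scale. The chaperones had PNMC means at 0.645 to 0.829 of the control means, and their median change on the log2(value + 1) scale was -0.36, against -0.05 over all genes tested. Since these genes were proposed with this contrast in view, their differences are a description and carry no test of their own. The RNA came from whole embryos, so a difference in a few embryos or cells and a smaller one in all of them cannot be told apart.

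Hspa5 encodes BiP, the main Hsp70 chaperone of the ER lumen, which also holds the sensors inactive. It stood at 99.1, 100.4 and 112 in PNMC libraries 1, 2 and 3, against 136 and 128 in control libraries 1 and 2. The 3 PNMC values lay close together and below both controls, with means of 104 ± 7.19 (SD, n = 3) after PNMC and 132 ± 5.42 (SD, n = 2) in controls and a fitted log2 change of -0.35 (SE 0.141, 95% interval -0.65 to -0.04). Hsp90b1 encodes GRP94, the Hsp90 chaperone of the ER. It stood at 30.3, 39.3 and 36.7 in the PNMC libraries, against 43.7 and 48.4 in the controls. PNMC library 1 was the lowest, and the gap between the highest PNMC value and the lower control was smaller than the spread within the PNMC group. Its fitted log2 change was -0.38 (SE 0.186, 95% interval -0.77 to 0.02). In GENCODE M21, Hsp90b1 shares 415 bases, or 10.3% of its exonic length, with 1810014B01Rik on the opposite strand, so reads there cannot be told apart.

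Dnajb9 encodes ERdj4, a J-domain co-chaperone of BiP that also acts on IRE1. It stood at 93.3, 101 and 100.2 in the PNMC libraries, against 131 and 106 in the controls. The controls differed from each other more than control library 2 differed from the PNMC libraries. The log2 change of Dnajb9, -0.26 (SE 0.150, 95% interval -0.58 to 0.06), was -0.11 without control library 1 and -0.41 without control library 2. A copy, Gm6568, which has no row among the values analysed here, shares 93.3% identity with Dnajb9 over 697 bases, so that reads may be split between them. Sdf2l1 encodes a partner of ERdj co-chaperones in the ER lumen. It stood at 15.9, 15.4 and 11.7 in the PNMC libraries, against 22.5 and 21.9 in the controls. The controls nearly coincided and lay above all PNMC values, and the fitted log2 change of -0.61 (SE 0.225, 95% interval -1.09 to -0.13) was the lowest of the 10.

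**Figure D1:**
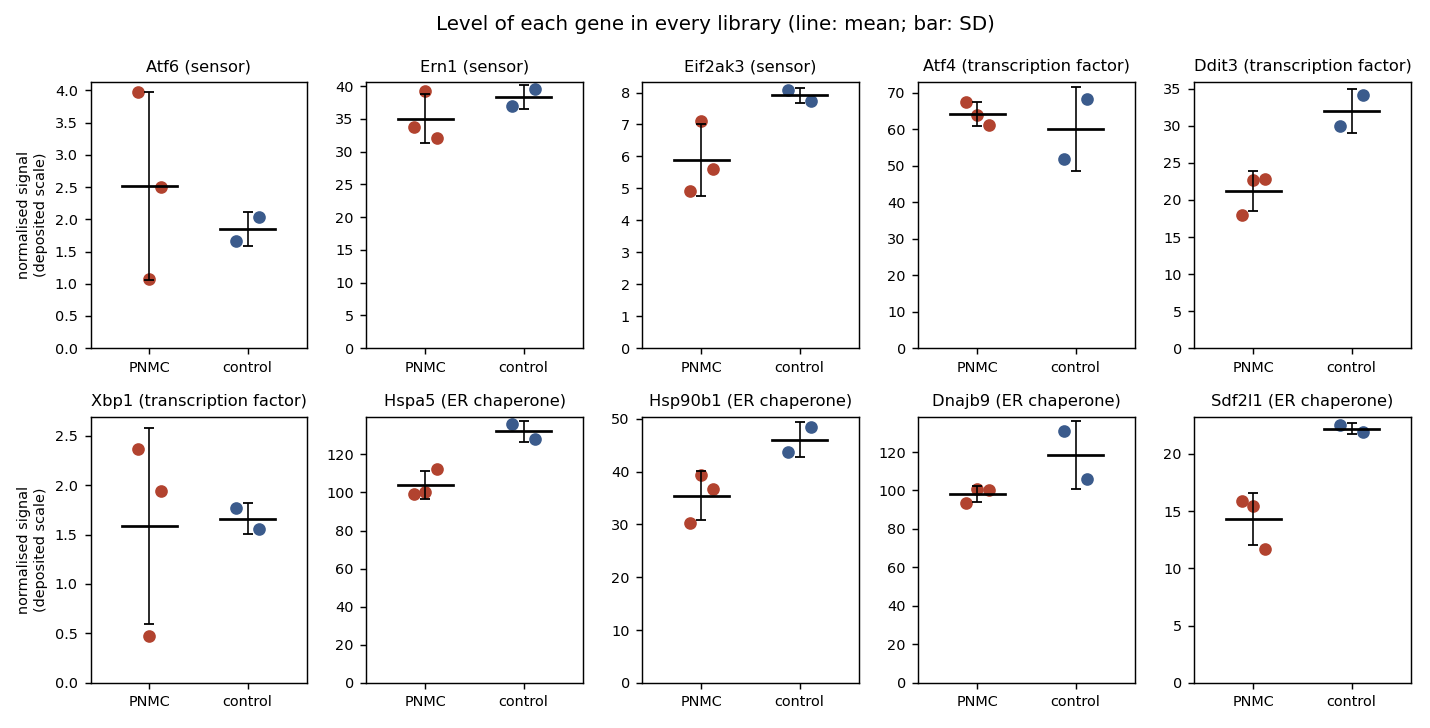
Normalised signal on the deposited scale (vertical axis, from 0) of the 10 genes in 3 PNMC libraries (red, left) and 2 control libraries (blue, right), with a line at each mean and a bar of 1 SD. On this scale all 4 ER chaperones, Ddit3 and Eif2ak3 show PNMC points below both control points, while Atf6, Ern1, Atf4 and Xbp1 overlap.

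Chaperone promoters are known for the ER stress element (ERSE), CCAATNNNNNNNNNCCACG, to which NF-Y binds at the CCAAT end and ATF6 or XBP1 at the CCACG end. RefSeq promoter windows on GRCm38.p6 were at hand for 9 of the 10 genes, with none for Atf6. The 250 bases before the start of each were searched on both strands for this motif, for ERSE-II, in which ATTGG is followed by any 1 base and CCACG, for the XBP1 motif UPRE (TGACGTGG), for the ATF4 composite element CARE (TGATGNAAT) and for CCAAT alone, which also counts inside an ERSE. Only exact matches were counted, so near matches in any window are left out. As spelled, ERSE was present in 0.113% of 32851 promoter windows of the same length, in 1 copy in that of Hspa5 and in 2 copies in that of Hsp90b1, which was the only window of all with 2 or more. The windows of the 4 chaperones are shown because ERSE is known as an element of chaperone genes, and they set the 2 genes that hold it beside the 2 that do not. Each is given 5′ to 3′ on the strand of the gene, with CCAAT or its complement ATTGG in capitals, and with the 19 bases of an ERSE in capitals where one is present.
Hspa5, chr2:34771840-34772089, plus strand: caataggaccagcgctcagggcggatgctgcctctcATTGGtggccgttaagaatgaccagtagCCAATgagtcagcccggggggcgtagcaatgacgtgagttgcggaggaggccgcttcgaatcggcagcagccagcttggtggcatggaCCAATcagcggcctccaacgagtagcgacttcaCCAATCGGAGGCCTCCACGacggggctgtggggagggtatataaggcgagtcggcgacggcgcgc
Hsp90b1, chr10:86705445-86705694, minus strand: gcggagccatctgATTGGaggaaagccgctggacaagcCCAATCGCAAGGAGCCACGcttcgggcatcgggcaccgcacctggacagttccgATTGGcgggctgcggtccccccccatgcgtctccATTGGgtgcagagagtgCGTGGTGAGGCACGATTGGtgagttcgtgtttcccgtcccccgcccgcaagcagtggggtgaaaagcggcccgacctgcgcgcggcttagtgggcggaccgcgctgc
Dnajb9, chr12:44210069-44210318, minus strand: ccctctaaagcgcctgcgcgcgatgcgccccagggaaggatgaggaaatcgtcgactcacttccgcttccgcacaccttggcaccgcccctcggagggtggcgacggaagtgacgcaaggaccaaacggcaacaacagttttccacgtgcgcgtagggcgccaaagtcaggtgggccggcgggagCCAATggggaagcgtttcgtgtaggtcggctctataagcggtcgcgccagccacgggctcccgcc
Sdf2l1, chr16:17132384-17132633, minus strand: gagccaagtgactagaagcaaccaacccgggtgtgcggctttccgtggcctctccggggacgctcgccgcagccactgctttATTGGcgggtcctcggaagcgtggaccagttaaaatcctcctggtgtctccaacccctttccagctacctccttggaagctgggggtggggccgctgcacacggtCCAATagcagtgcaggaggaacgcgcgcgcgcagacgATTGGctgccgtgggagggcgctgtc

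The 3 ERSE copies keep the same ends around different middles. They are set out here, read on the motif's own strand.
Hspa5, 65 to 47 bases before the start: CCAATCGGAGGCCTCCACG
Hsp90b1, 212 to 194 bases before the start: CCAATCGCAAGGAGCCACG
Hsp90b1, 107 to 89 bases before the start, from the complementary strand: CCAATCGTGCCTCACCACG
None of the 9 windows held ERSE-II (0.0304% of all windows), UPRE (0.563%) or CARE (0.816%) as spelled. CCAAT was found in 33.8% of all windows, once in Dnajb9 and Ddit3, 2 times in Atf4, 3 times in Sdf2l1, 4 times in Hspa5, 5 times in Hsp90b1 and 6 times in Eif2ak3, and not in those of Ern1 and Xbp1. Outside the 10 genes, an ERSE was present in the windows of 33 genes, of which 18 were tested. Of these, 9 had lower and 9 higher fitted values after PNMC, where 56.9% of all genes tested had lower ones. Their median log2 change was -0.0071. All PNMC libraries lay below both controls in 1 (Tdrd9) and above in 2 (Xlr3a and Adcy3), beside 11.9% and 7.97% of all genes tested. Adcy3 had a mean level of 0.967, near the value of 1 that the filter asks for. The 5 of highest mean level as deposited were Zfp57 with a log2 change of 0.0081, Calr4 with 0.02, Xlr3a with 0.28, Creld2 with -0.15 and Calr with -0.31. Among the 9 higher, Xlr3a, Xlr3b and Xlr3c, picked here for their shared family name, were counted as separate genes. A motif match here is a description of letters, with no binding measured.

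Of the 3 transcription factors, Ddit3 had lower values after PNMC, and Atf4 and Xbp1 overlapped between the groups. Ddit3, whose product CHOP promotes cell death under lasting ER stress, stood at 18.0, 22.6 and 22.8 in the PNMC libraries, against 29.9 and 34.2 in the controls. The groups were apart, with means of 21.1 ± 2.70 (SD, n = 3) after PNMC and 32.0 ± 2.99 (SD, n = 2) in controls and a fitted log2 change of -0.58 (SE 0.204, 95% interval -1.02 to -0.14). Exons of Ddit3 share 68 bases, or 3.97% of its exonic length, with Mars on the opposite strand in GENCODE M21, and Mars averaged 1.24 over the 5 libraries. Atf4, the effector that the eIF2 kinases share, stood at 67.6, 63.8 and 61.1 in the PNMC libraries, against 51.9 and 68.4 in the controls. The controls spanned all 3 PNMC values, and the log2 change of 0.10 (SE 0.171, 95% interval -0.26 to 0.47) was 0.30 without control library 2 and -0.09 without control library 1.

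Ddit3 and Atf4 can also be set against each other within a library. The ratio of Ddit3 to Atf4 was 0.267, 0.355 and 0.373 in the PNMC libraries, against 0.576 and 0.4996 in the controls, with no overlap. This ratio was picked after its values were seen. Xbp1, the substrate of IRE1, stood at 2.36, 0.472 and 1.94 in the PNMC libraries, against 1.77 and 1.55 in the controls. PNMC libraries lay on both sides of the controls, and the interval of the log2 change, -1.05 to 0.81 around -0.12, covers changes of either sign.

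The sensors showed the same mixture. Eif2ak3 stood at 4.91, 7.11 and 5.61 in the PNMC libraries, against 8.08 and 7.75 in the controls, so that all PNMC values were below both controls, with PNMC library 2 closest to them. Its log2 change was -0.39 (SE 0.281, 95% interval -0.99 to 0.22), and 8.05% of its exonic length is shared with Gm43292 on the opposite strand. Ern1 stood at 33.8, 39.2 and 32.0 in the PNMC libraries, against 37.1 and 39.6 in the controls. PNMC library 2 lay between the controls, and the log2 change was -0.13 (SE 0.183, 95% interval -0.53 to 0.26). Atf6 stood at 3.98, 1.07 and 2.51 in the PNMC libraries, against 1.67 and 2.03 in the controls. It had both the highest and the lowest value in the PNMC group, and its log2 change was 0.22 (SE 0.415, 95% interval -0.67 to 1.11). Atf6 and Xbp1, both below the middle of the genes tested in mean level as deposited, were each highest in PNMC library 1 and lowest in PNMC library 2.

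**Figure D2:**
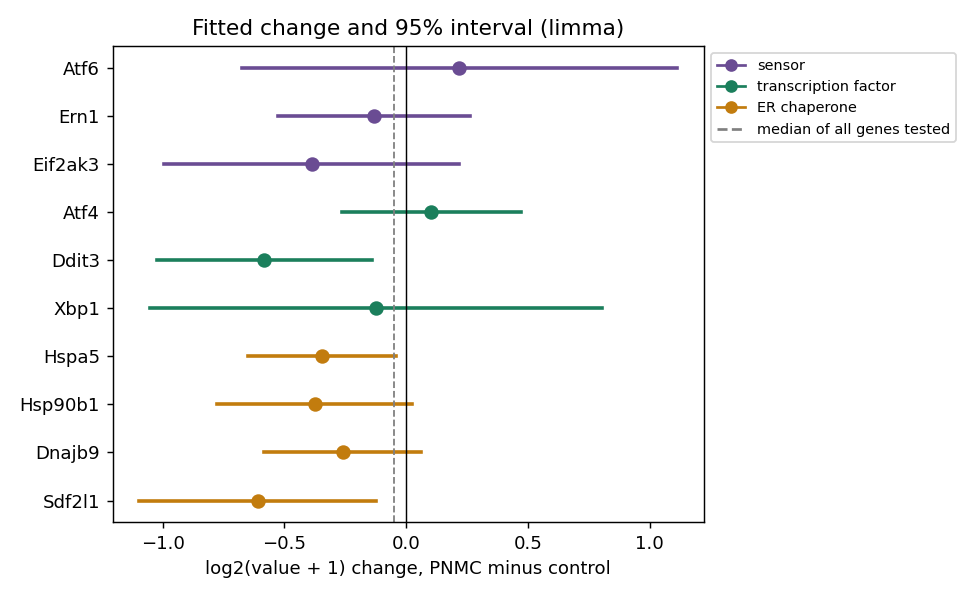
Fitted log2(value + 1) change of PNMC minus control (horizontal axis) for each gene, with points for limma's estimates and bars for 95% intervals, coloured by role. The intervals of Hspa5, Sdf2l1 and Ddit3, which earlier results of these data had singled out, lie below 0 and the other 7 include 0. The dashed line is the median of all genes tested, -0.05.

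Counted together, 6 of the 10 genes had all PNMC libraries below both controls and 0 had them above. Over all 12734 genes tested the shares were 11.9% below and 7.97% above, but the genes were proposed from this contrast, so nothing is read from that comparison. None of the 10 passed limma's moderated test at an adjusted p under 0.05, as was the case for 0% of all genes tested, and 3 of the 10 (Ddit3, Sdf2l1 and Hspa5) were among the 636 genes (4.99%) at an unadjusted p under 0.05. Earlier results of these data had already singled out these 3, so nothing is read from their number. By role, 4 of 4 chaperones, 1 of 3 transcription factors and 1 of 3 sensors were the ones below both controls. Median log2 changes were -0.36 for chaperones, -0.12 for transcription factors and -0.13 for sensors. The difference between roles was not tested, since the choice of genes used the same values.

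Summed over each role, the chaperones reached 239, 256 and 261 in the PNMC libraries, against 333 and 304 in the controls. The groups had to be apart in this sum, since each chaperone in it was lower in every PNMC library than in both controls. The sum therefore adds no separate result, and most of it is Hspa5 and Dnajb9. The transcription factors summed to 88.0, 86.9 and 85.9 in the PNMC libraries, against 83.6 and 104 in the controls, and the sensors to 42.7, 47.4 and 40.1 in the PNMC libraries, against 46.8 and 49.4 in the controls. Both of these sums overlapped between the groups. Of the ratios among these chaperones, those of Hspa5 to Hsp90b1 and of Dnajb9 to Hspa5 overlapped between the groups, and that of Sdf2l1 to Hspa5 did not. The ratio of Hspa5 to Hsp90b1 was 3.27, 2.56 and 3.05 in the PNMC libraries, against 3.11 and 2.65 in the controls, and the ratio of Dnajb9 to Hspa5 was 0.941, 1.01 and 0.893 in the PNMC libraries, against 0.962 and 0.825 in the controls. The ratio of Sdf2l1 to Hspa5 was 0.160, 0.154 and 0.104 in the PNMC libraries, against 0.166 and 0.171 in the controls. PNMC library 1, at 0.160, lay close to control library 1, at 0.166, beside an SD of 0.0306 in the PNMC group.

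**Figure D3:**
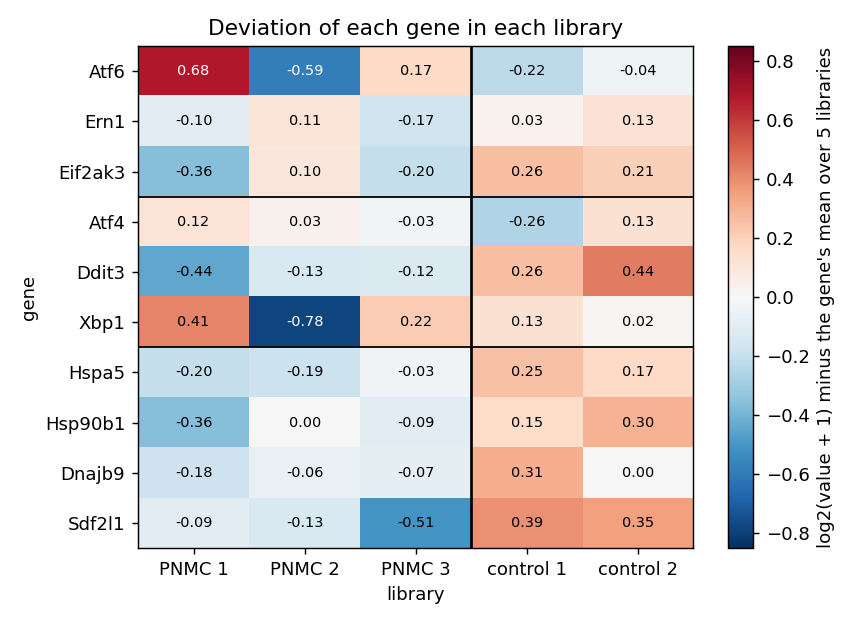
Deviation of log2(value + 1) from each gene's mean over the 5 libraries (colour and printed value), with genes in rows grouped by role and libraries in columns, PNMC left of the line and control right of it. The chaperone rows are at or below 0.00 in all PNMC columns and at or above 0.00 in both control columns, and Atf6 and Xbp1 vary most within the PNMC group.

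Levels between genes can be compared only if values are scaled by length, which the sources used here do not state. The order was therefore taken both as deposited and after division by the longest GENCODE M21 transcript of each gene. Ranks that held in both are named as such, and the rest is marked with its scale. Hspa5 and Dnajb9, with means over the 5 libraries of 115 and 106 as deposited, held the 2 highest ranks in both orders, with Hspa5 first as deposited, Dnajb9 first per length, and overlapping ranges. Atf4, at 62.6, held rank 3 in both, with no overlap with Dnajb9 above it or Hsp90b1 below it as deposited. Hsp90b1, Ern1, Ddit3 and Sdf2l1 followed at 39.7, 36.3, 25.5 and 17.5, each range overlapping the next, and they changed places once divided by length. Eif2ak3 held rank 8 in both at 6.69, and Atf6 and Xbp1 were the lowest in both at 2.25 and 1.62, with overlapping ranges. Divided by length, Hspa5 and Atf4 were nearly equal, at 31.4 and 31.0 per kilobase, so their order is not settled on that scale. Overlap of ranges was examined only as deposited. Among the genes tested, Hspa5 and Dnajb9 lay at the 94.97 and 94.5 percentiles of mean level as deposited, and Atf6 and Xbp1 at the 23.5 and 15.9 percentiles. Percentiles were not worked out per length, so they hold only for the deposited scale.

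The other genes of the pathway were taken from 5 lists of 105 names, of which 99 were in the table and 88 were tested. None of the 88 passed the adjusted threshold in either direction, and 1 (Erp29, higher after PNMC) was at an unadjusted limma p under 0.05. All PNMC libraries lay below both controls in 8 of the 88 genes, or 9.09%, and above both in 3, or 3.41%. The shares over all genes tested were 11.9% and 7.97%. Fitted values were lower after PNMC in 53 of the 88, or 60.2%, beside 56.9% of all genes tested. The counts of lower and higher genes in each list are to be read beside that 56.9%.

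Other ER folding genes mostly overlapped between the groups. Of the 25 listed symbols with values, 24 were tested, 17 had lower and 7 higher fitted values, the median log2 change was -0.11 (0.0136 without control library 2), and 22 overlapped between the groups, with Sec63 below and Erp29 above both controls. The 3 with the highest level as deposited were Tor1a, an ER ATPase, at 196 ± 26.3 (SD, n = 3) after PNMC and 196 ± 4.37 (SD, n = 2) in controls, the prolyl isomerase Ppib at 99.5 ± 25.7 after PNMC and 103 ± 12.7 in controls, and Creld2, a stress-induced ER protein, at 87.3 ± 12.0 after PNMC and 96.7 ± 9.12 in controls. In each of the 3 the difference between means was smaller than the larger SD. Calr, the lectin chaperone calreticulin, averaged 72.8 ± 6.70 after PNMC and 91.8 ± 22.8 in controls, with overlap, and was picked after its values were seen, as were Erp29 and Sec63.

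ER degradation and translocation genes had a median log2 change of -0.15 over 20 tested genes, 14 lower and 6 higher. Selenos, which anchors the degradation machinery, averaged 119 ± 15.3 after PNMC and 132 ± 23.8 in controls, and Os9, which recognises misfolded glycoproteins, averaged 108 ± 0.459 after PNMC and 111 ± 8.70 in controls. Sec61b, a subunit of the translocation channel, averaged 103 ± 7.29 after PNMC and 119 ± 5.27 in controls and was 1 of 2 genes in the list, with Edem3, whose PNMC libraries all lay below both controls.

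Signalling genes of the response, tested in 9 of 12, had a median of -0.10, 5 lower and 4 higher, and the median was 0.0623 without control library 2. Creb3l4, a membrane-bound relative of ATF6, averaged 169 ± 9.63 after PNMC and 167 ± 7.19 in controls, a difference within the spread. Mbtps2, the protease that makes the last cut in ATF6, averaged 32.4 ± 2.82 after PNMC and 35.3 ± 8.31 in controls, and Rtcb, the ligase that joins spliced Xbp1, averaged 20.4 ± 2.46 after PNMC and 23.4 ± 7.41 in controls. Atf6b and Creb3l1 lay below both controls in all PNMC libraries and Map3k5 above.

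On the side of the integrated stress response, 12 listed genes for eIF2 kinases, eIF2, its exchange factor eIF2B and the phosphatase subunits were tested. All 12 overlapped between the groups, with 4 lower, 8 higher and a median log2 change of 0.05. The list leaves out the kinase gene Eif2ak3, described above, which lay below both controls in all PNMC libraries. The kinase gene Eif2ak2 was too low to be tested, at 0 to 0.046 after PNMC and at 0.326 and 0.710 in controls. Eif2s2, the beta subunit of eIF2, averaged 189 ± 9.84 after PNMC and 185 ± 3.50 in controls. Ppp1r15a, which encodes the phosphatase subunit GADD34 that is itself an ATF4 and CHOP target, averaged 184 ± 15.1 after PNMC and 182 ± 43.7 in controls, and Eif2b1 averaged 112 ± 11.2 after PNMC and 95.6 ± 8.82 in controls. Targets of ATF4 and CHOP had a median of -0.05 over 23 tested genes, 13 lower and 10 higher, and the median was 0.0344 after scaling libraries to a common median. Mthfd2, a mitochondrial folate enzyme, averaged 401 ± 9.47 after PNMC and 396 ± 33.5 in controls, Slc3a2, an amino acid transporter subunit, averaged 124 ± 11.7 after PNMC and 128 ± 11.3 in controls, and Cth, an enzyme of cysteine synthesis, averaged 114 ± 28.9 after PNMC and 96.6 ± 0.175 in controls. Among the targets, 3 genes, Ddit4, Shmt2 and Atf3, lay below both controls in all PNMC libraries, and Cebpg lay above. Atf3 had a mean level of 1.48, near the value of 1 that the filter asks for. So did Sec63 (0.951), Edem3 (1.21) and Creb3l1 (1.74) of the lists above. Trib3, a target that both factors share, averaged 30.5 ± 3.46 after PNMC and 30.1 ± 5.81 in controls and was picked after its values were seen.

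**Figure D4:**
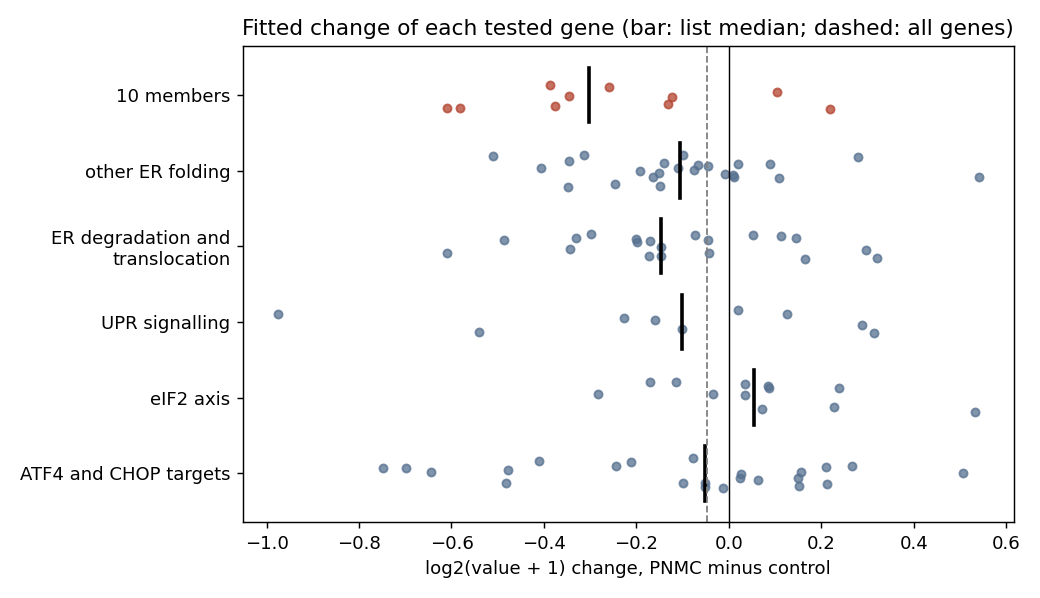
Fitted log2(value + 1) change of PNMC minus control (horizontal axis) for each tested gene of the 10 described here (red) and of the 5 pathway lists (blue), with a black bar at each list's median and a dashed line at the median of all genes tested. The medians are -0.30 for the 10 genes, -0.11 for other ER folding genes, -0.15 for ER degradation and translocation, -0.10 for signalling, 0.05 for the eIF2 axis and -0.05 for ATF4 and CHOP targets.

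Hspa5, the gene with the highest mean level of the 10 as deposited, was also compared with all 3538 other genes of a mean of at least 20. The genes whose log2 deviations over the 5 libraries came closest were Gm2a, a lysosomal lipid-binding cofactor, Prr11 and Pttg1ip, with root mean square differences of 0.0176, 0.0328 and 0.0455, against 0.182 for the size of Hspa5's own deviations. Gm2a averaged 29.2 ± 2.13 after PNMC and 37.0 ± 1.20 in controls. Of the 10, Dnajb9 was nearest to Hspa5 at 0.0977, which would place it at rank 48 among those genes, and Hsp90b1 followed at 0.134. The likeness rests on 5 libraries and is a description.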

How the data were processed

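The submitters' processing notes name 4 tools (Trimmomatic; HISAT2 2.0.5; HTSeq; DESeq2 1.16.1), without saying what each was used for, and GRCm39 as genome build. The authors deposited 1 table that gives a normalised signal per library for 32285 symbols. Its unit is not stated, and since low values have no common step, whole reads could not be recovered and a count model was not used. Columns were matched to samples by title. The filter kept the 12734 genes that reached 1 in 2 or more libraries. With R 4.3.3 and limma 3.58.1, log2(value + 1) was compared between 3 PNMC and 2 control libraries by limma's moderated test with a variance trend and robust variances, and p-values were adjusted by Benjamini-Hochberg over all genes at 0.05. The log2(value + 1) scale understates changes of low genes. The test was checked on simulated data. Errors of means are SDs over libraries, while each SE and interval comes from limma.

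The 10 genes and the 5 pathway lists were chosen with earlier results of these data known. Earlier, Ddit3 and Sdf2l1 had the smallest p of a longer stress list, and Hspa5 had been named after its values were seen. Genes named in the text are the 10 genes, the 3 of highest mean level as deposited in each list, the 5 of highest level among ERSE genes, the 3 closest profiles to Hspa5 and genes said to be picked or that stand apart. GENCODE M21, on another build, served for transcript lengths, exon overlaps and copies of at least 90% identity over 200 bases or more. Promoter windows are RefSeq's on GRCm38.p6. The fit was repeated with a smaller pseudocount (0.1), without the filter, with a stricter filter (10 in 2 libraries), after quantile or median scaling, without the variance trend, with a replicate block, and with each library left out.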

Additional observations from a re-analysis of the deposited data

How the results depend on the processing

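Of 117 values of the 10 genes under 12 alternatives, 113 moved by no more than 1 SD between replicates. The other 4 were those of Atf4 and Dnajb9 without either control library, and Ddit3, Sdf2l1, Hspa5, Hsp90b1, Dnajb9, Eif2ak3 and Ern1 stayed below 0 in every alternative that gave a value. A change of filter or of the variance trend cannot move a gene's estimate, so those values equal the main ones. The replicate block gives each gene the same estimate as leaving out PNMC library 3. The count of 113 therefore overstates the number of separate checks. Median scaling gave a median log2 change of -0.28 for chaperones, -0.0717 for ER degradation and translocation, -0.0168 for signalling genes and 0.14 for the eIF2 list. The transcription factor median, which rests on 3 genes, was -0.24 with a minimum of 10, which leaves out Xbp1, -0.31 with a pseudocount of 0.1, -0.0215 under quantile normalisation and -0.26 under the replicate block. With 1 library left out it ranged from -0.35 to 0.11, and the other medians ranged from -0.40 to -0.29 for chaperones, from -0.21 to -0.0719 for sensors, from -0.20 to -0.0912 for ER degradation and translocation, from -0.13 to -0.0109 for ATF4 and CHOP targets, from -0.11 to 0.0136 for other ER folding genes, from -0.086 to 0.0623 for signalling genes and from -0.0079 to 0.0779 for the eIF2 list. The number of the 10 genes above both controls in all PNMC libraries ranged from 0 to 2 there. The number below ranged from 6 to 8. Leaving out a library cannot lower either number while all 10 genes stay tested, so these ranges are no check of the counts. The number below was 5 of 10 after median scaling, which lost Dnajb9, and 5 of 7 with a minimum of 10, which leaves out Eif2ak3. The share over all genes tested was worked out for the main fit only, so nothing is read from these counts. The count of genes past the threshold ranged from 0 to 1, the 1 being Gm13103 without PNMC library 1. The replicate numbers carry no stated pairing. Same-numbered libraries had correlations of deviations of -0.0585 and -0.0433 over 12734 genes. With 2 controls, their deviations from the control mean mirror each other, so these values cannot settle whether libraries were paired. Under the replicate block, where PNMC library 3 has no partner, no gene passed (544 at an unadjusted limma p under 0.05, against 636 in the main fit). The causes were not tested. Without either control library the lone control is assumed to vary like the PNMC libraries. A comparison of count tools was not run, since the table holds no counts. Read depth is unknown, so what it limits could not be worked out.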
